A study of Mus musculus with 6 samples.

Results

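Expression of 10 integrin subunit genes was examined in bone marrow-derived macrophages. The genes encode 6 alpha subunits (Itgax, Itgam, Itgal, Itga4, Itga6 and Itgav) and 4 beta subunits (Itgb2, Itgb1, Itgb3 and Itgb5). They were chosen by name, as subunits that macrophages are known for, but with earlier results of these data known. Each is represented by its brightest probe set. All 10 were measured among 18820 tested genes, through 11 probe sets. The WT group had 3 arrays of macrophages from wild-type mice and the GPS2KO group had 3 arrays of macrophages labelled as a macrophage knockout of GPS2. GPS2, G protein pathway suppressor 2, belongs to a nuclear co-repressor complex. Both groups came from male mice aged 12 to 16 weeks, and marrow cells were grown for 7 days in medium with 30% L929-conditioned medium and left untreated. Neither the deleted exons nor the Cre driver or strain is given in the labels.

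Integrins are adhesion receptors made of 1 alpha and 1 beta chain, and an alpha chain reaches the surface only with a beta partner. The leukocyte integrins share the beta2 chain: with alphaL it forms LFA-1, which binds ICAMs, with alphaM it forms complement receptor 3, and with alphaX complement receptor 4. Integrins of the beta1 and alphav families hold cells to fibronectin, laminin, vitronectin and other matrix proteins, and alphav integrins also take part in the uptake of dying cells and in the activation of latent TGF-beta. Talin and kindlin proteins bind the beta tails from inside and switch integrins to their active form.

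The arrays were alike in level, with medians from 5.57 to 5.60 on the log2 scale. Gps2 itself was at 59.7% of its WT signal in GPS2KO (change -0.75, SE 0.0472, limma adjusted p = 0.000256), and the groups did not overlap. In an array whose probes may lie outside the deleted part, this checks the labels only in part. Macrophage markers were bright in both groups: 7 were tested, with means up to 13.4, and none had a dim mean (under 5.49). One of them, the phagocytic receptor Mertk, rose by 0.24 (adjusted p = 0.00991). The groups did not overlap for 5 of the 7, 4 higher and 1 lower in GPS2KO, against 37.3% of tested genes without a dim mean. The summed linear intensity of the 7 was 37590 to 38699 in WT and 38721 to 38877 in GPS2KO, which did not overlap. How far this bears on the integrin values was not tested. RNA came from whole cultures, in which fewer cells of a type and less RNA per cell cannot be told apart.

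In GPS2KO macrophages, Itgax rose 2.0-fold and Itgal fell 1.37-fold, while Itgam rose 1.14-fold and Itgav fell 1.13-fold. The genes of all 4 beta chains, among them Itgb2, the shared partner of the first 3, did not pass the test. Thus 4 of 10 members were called, 2 higher and 2 lower, where 6.72% of all tested genes were called, 2.9% higher and 3.83% lower. None of the members had a dim mean, and among the 11292 tested genes without one 10.6% were called. The arrays of the groups did not overlap for 7 members, 3 of them higher and 4 lower in GPS2KO. Over all tested genes that share was 27.1% (11.9% higher and 15.2% lower), and over genes without a dim mean it was 37.3%. The median change was 0.011 over the members and -0.0077 over all tested genes. After each array was centred on its median, the 1265 calls over all genes (545 higher, 720 lower) became 1521 (460 higher, 1061 lower), and the same 4 members were called along with Itgb5.

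**Figure D1:**
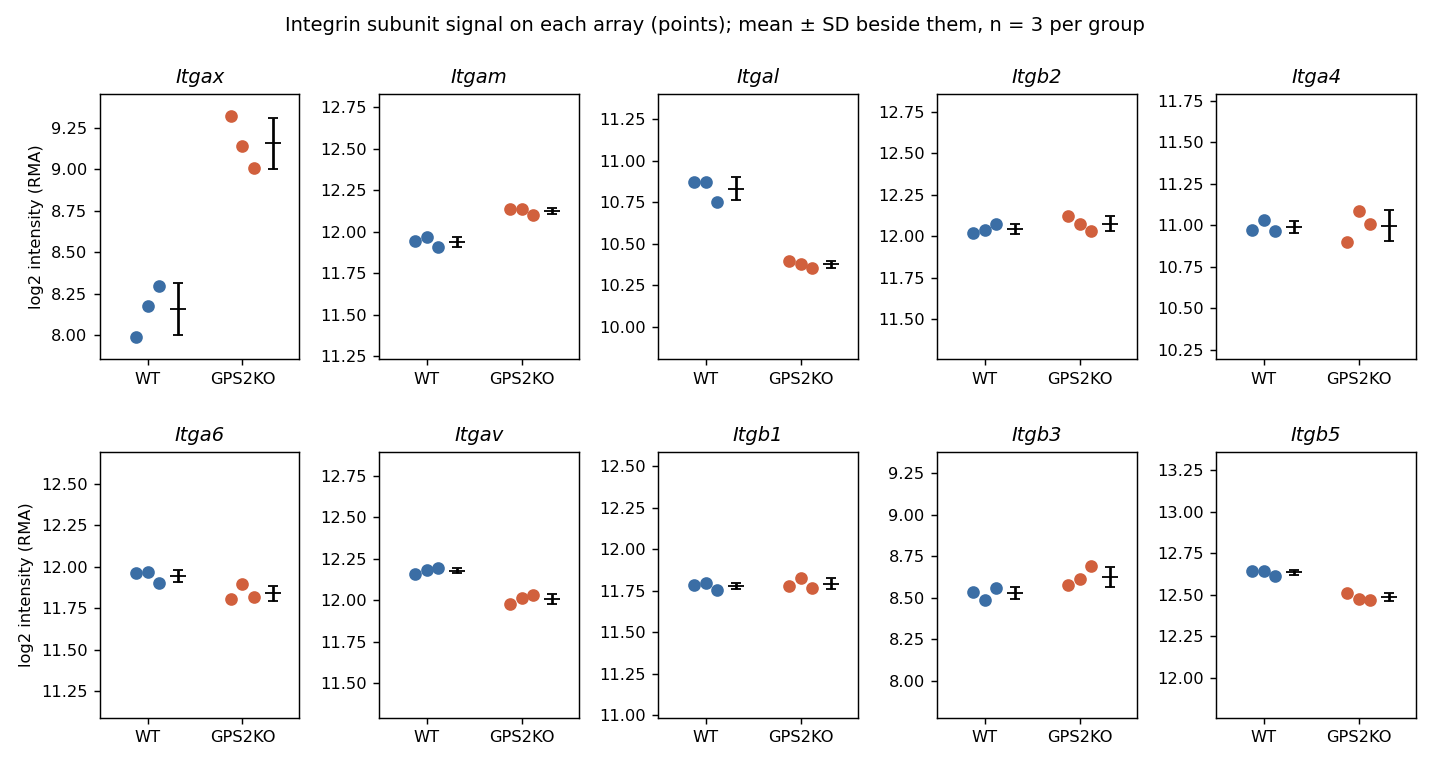
Log2 intensity of each integrin subunit gene on the 3 WT (blue) and 3 GPS2KO (orange) arrays, with the mean and SD of each group beside the points; every panel spans the same range of log2 units. The GPS2KO arrays lie above all WT arrays for Itgax and below them for Itgal, with smaller gaps for Itgam, Itgav and Itgb5.

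Itgax encodes alphaX, known as CD11c, a chain of macrophages and dendritic cells. Its log2 signal (probe set 10557895) was 7.99, 8.18 and 8.30 in WT and 9.32, 9.14 and 9.01 in GPS2KO. Every GPS2KO array lay above every WT array, by at least 0.71, which is more than the range within either group (0.31 in each). The means were 8.16 ± 0.16 and 9.16 ± 0.15 (SD, n = 3 each). Itgax rose by 1.00 (SE 0.0986), with a 95% interval from 0.77 to 1.23 and a limma p of 0.00132 after Benjamini-Hochberg adjustment. Only 20 of the tested genes, Itgax included, rose by as much. Among the members it had the widest spread within groups.

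Itgam encodes alphaM, known as CD11b, which marks myeloid cells. Its signal (probe set 10557862) was 11.94, 11.97 and 11.91 in WT and 12.13, 12.14 and 12.10 in GPS2KO. The groups were separate, but by only 0.13. Itgam rose by 0.19 (SE 0.0376, interval 0.098 to 0.27, limma adjusted p = 0.0279). The call ended when any 1 of the 6 arrays was left out, at adjusted p between 0.0557 and 0.100. The intervals of Itgax and Itgam do not overlap, although no test was made between these genes.

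Itgal encodes alphaL, known as CD11a, the alpha chain of LFA-1. The array values (probe set 10557591) were 10.87, 10.87 and 10.75 in WT and 10.40, 10.38 and 10.36 in GPS2KO. All GPS2KO arrays were below all WT arrays, and WT replicate 3 lay nearest to them. The means were 10.83 ± 0.07 and 10.38 ± 0.02 (SD, n = 3 each). Itgal fell by 0.46 (SE 0.0462, interval -0.56 to -0.35, limma adjusted p = 0.00146), to 72.9% of the WT signal. At least as large a fall was seen for 149 tested genes, Itgal included. The Itgax and Itgal calls held in each of the 6 fits without 1 array, with adjusted p of at most 0.00851 and 0.00971.

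Itgb2 encodes the beta2 chain, CD18, without which none of these 3 alpha chains is displayed. Its signal (probe set 10364262) was 12.02, 12.03 and 12.07 in WT and 12.12, 12.07 and 12.03 in GPS2KO. The groups overlapped, and the change was 0.031 (SE 0.0411, interval -0.065 to 0.13, adjusted p = 0.731). As far as the spread among these arrays goes, the interval allows a rise of Itgb2 up to 0.13 and a fall up to 0.065. In the leukocyte family, therefore, 1 alpha gene rose clearly, 1 rose slightly and 1 fell, beside a beta gene with no detected change.

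Itgam and Itgax are neighbours on chromosome 7, followed by Itgad, which encodes the alphaD chain. Itgad had a dim signal, 5.25 in WT and 5.19 in GPS2KO (change -0.058, adjusted p = 0.589). Of the 4 tested genes before Itgam, the kinase gene Bckdk fell by 0.18 (adjusted p = 0.0401), and the inflammasome adaptor Pycard differed by 0.090 (adjusted p = 0.329). Prss8 and Trim72 were dim, with changes of -0.0049 and -0.054. The genes after Itgad, Cox6a2, Armc5 and Tgfb1i1, did not pass either, with changes from -0.21 to -0.074. Itgal lies on the same chromosome with 29 tested genes between it and Itgam. None of the 4 tested genes on either side of Itgal passed.

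**Figure D2:**
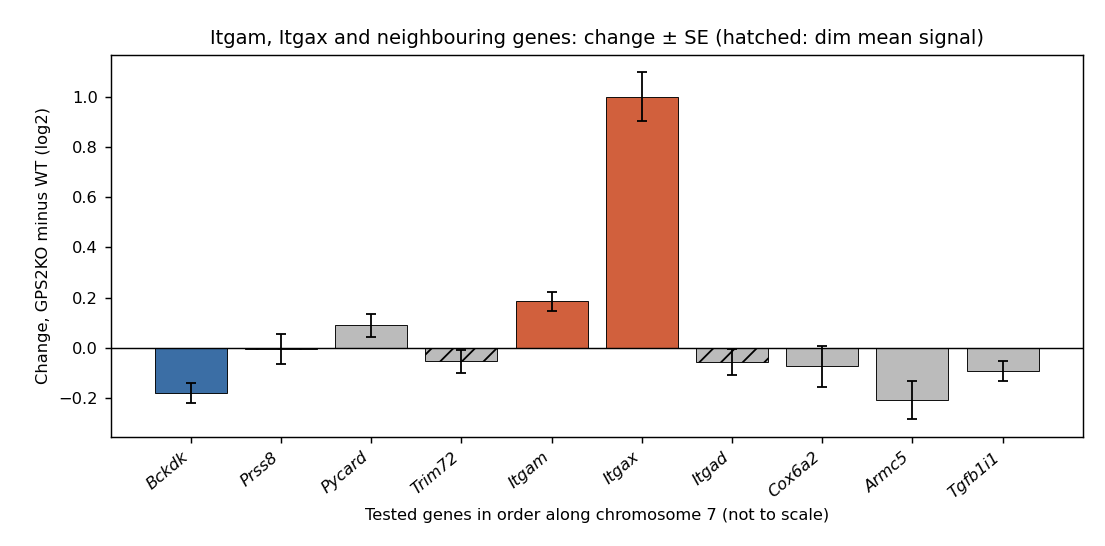
Change of each tested gene around Itgam and Itgax, in gene order along chromosome 7, with bars for the log2 difference, GPS2KO minus WT, whiskers for the limma SE, and hatching for dim genes. The bar of Itgax stands at 1.00 and that of Itgam at 0.19, and Bckdk is the only other called gene.

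Promoter sequences are shown for Itgam and Itgax, the neighbours that both rose, and for Itgav, which fell. They are the RefSeq windows of GRCm38.p6 from 250 bases before to 50 after a transcript start, and 6 of the 10 members had an entry (Itgax, Itgam, Itga4, Itgav, Itgb1 and Itgb5). Capitals mark matches on either strand to GAGGAA, the core bound by the myeloid factor PU.1, to TGANTCA, the AP-1 element, and to GGGCGG, the SP1 box. No marked matches overlap in these 3 windows. All lie on the plus strand, Itgam at chr7:128062390-128062689, Itgax at chr7:128129300-128129599 and Itgav at chr2:83724147-83724446.
Itgam: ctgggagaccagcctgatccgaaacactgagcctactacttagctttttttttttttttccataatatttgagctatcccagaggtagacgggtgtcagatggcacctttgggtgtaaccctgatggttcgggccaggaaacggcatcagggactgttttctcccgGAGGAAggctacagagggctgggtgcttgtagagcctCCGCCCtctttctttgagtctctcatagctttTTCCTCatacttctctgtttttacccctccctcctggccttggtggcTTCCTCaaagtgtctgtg
Itgax: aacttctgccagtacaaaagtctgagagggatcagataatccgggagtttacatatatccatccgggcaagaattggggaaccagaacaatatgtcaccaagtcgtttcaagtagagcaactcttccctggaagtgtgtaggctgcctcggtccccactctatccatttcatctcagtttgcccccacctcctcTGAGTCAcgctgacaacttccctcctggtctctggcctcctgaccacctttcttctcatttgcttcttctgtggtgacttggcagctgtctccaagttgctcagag
Itgav: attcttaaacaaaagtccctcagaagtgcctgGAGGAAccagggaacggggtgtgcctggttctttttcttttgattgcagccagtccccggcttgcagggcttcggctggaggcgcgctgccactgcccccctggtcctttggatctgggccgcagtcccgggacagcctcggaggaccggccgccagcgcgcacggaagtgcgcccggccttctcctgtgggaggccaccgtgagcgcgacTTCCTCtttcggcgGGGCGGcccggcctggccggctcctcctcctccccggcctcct

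The Itgam window held 3 matches to GAGGAA, starting at -84, -15 and 33 from the transcript start, and 1 to GGGCGG at -47. The Itgax window held neither of these letters and 1 match to TGANTCA at -56. In the Itgav window there were 2 matches to GAGGAA, at -218 and -7, and 1 to GGGCGG at 8. Among all 32851 windows of the same length, 28.3% held GAGGAA, 7.81% TGANTCA and 35.7% GGGCGG. The 2 alpha genes that rose thus shared none of the 3 motifs in these windows. A match describes the letters only, and no match says nothing about the factor.

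Itga4, Itga6 and Itgb1 belong to the beta1 family. Itga4 encodes alpha4, which binds VCAM-1 and fibronectin. The values of its probe set 10473125 were 10.97, 11.03 and 10.96 in WT and 10.90, 11.09 and 11.01 in GPS2KO, so that the highest and the lowest array were both GPS2KO. The change was 0.010 (SE 0.0548, interval -0.12 to 0.14, adjusted p = 0.944), and its sign turned after median centring (-0.014). Itga6 encodes alpha6, a laminin receptor chain. Its signal (probe set 10472820) was 11.96, 11.96 and 11.90 in WT and 11.80, 11.89 and 11.82 in GPS2KO. The groups were apart by only 0.0097, and the change of -0.10 did not pass (SE 0.0425, interval -0.20 to -0.0050, adjusted p = 0.219). With a variance trend it had adjusted p = 0.0346.

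Itgb1 encodes beta1, the partner of the largest number of alpha chains. Its brighter probe set (10576661) gave 11.78, 11.79 and 11.76 in WT and 11.78, 11.83 and 11.76 in GPS2KO. The groups overlapped (change 0.012, SE 0.0382, interval -0.077 to 0.10, adjusted p = 0.897), and the sign turned after median centring (-0.012) and after quantile normalization (-0.0046). The other probe set of the gene (10582843) had a mean of 6.03 and a change of -0.058, with an interval of -0.29 to 0.18. Neither probe set showed a difference beyond the spread between arrays.

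Itgav, Itgb3 and Itgb5 belong to the alphav family. Itgav encodes alphav, whose signal (probe set 10473281) was 12.16, 12.18 and 12.19 in WT and 11.97, 12.01 and 12.03 in GPS2KO. The groups were separate by 0.13, and the spread within each was small (SD 0.017 and 0.029, n = 3 each). Itgav fell by 0.17 (SE 0.0373, interval -0.26 to -0.085, limma adjusted p = 0.0357). As with Itgam, no fit without 1 array kept the call (adjusted p 0.0783 to 0.113).

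Itgb5 encodes beta5, a partner of alphav that binds vitronectin. With probe set 10435305 it was measured at 12.64, 12.65 and 12.61 in WT and 12.51, 12.48 and 12.47 in GPS2KO. Although all GPS2KO arrays were lower, the change of -0.15 just missed the threshold (SE 0.0367, interval -0.23 to -0.064, adjusted p = 0.0558). It passed after quantile normalization (adjusted p = 0.0329), after median centring (0.0364), without dim genes (0.0185) and with a variance trend (0.000437). Without any 1 array its adjusted p lay between 0.101 and 0.168.

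Itgb3 encodes beta3, the other main partner of alphav and the beta chain of the osteoclast vitronectin receptor. Its signal (probe set 10381809) was 8.54, 8.49 and 8.56 in WT and 8.58, 8.61 and 8.69 in GPS2KO. These groups were separate by only 0.016, and the change of 0.098 did not pass (SE 0.0454, interval -0.0076 to 0.20, adjusted p = 0.278). Of these 3 genes only Itgav was called, and the values of Itgb5 and Itgb3 differed in sign.

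**Figure D3:**
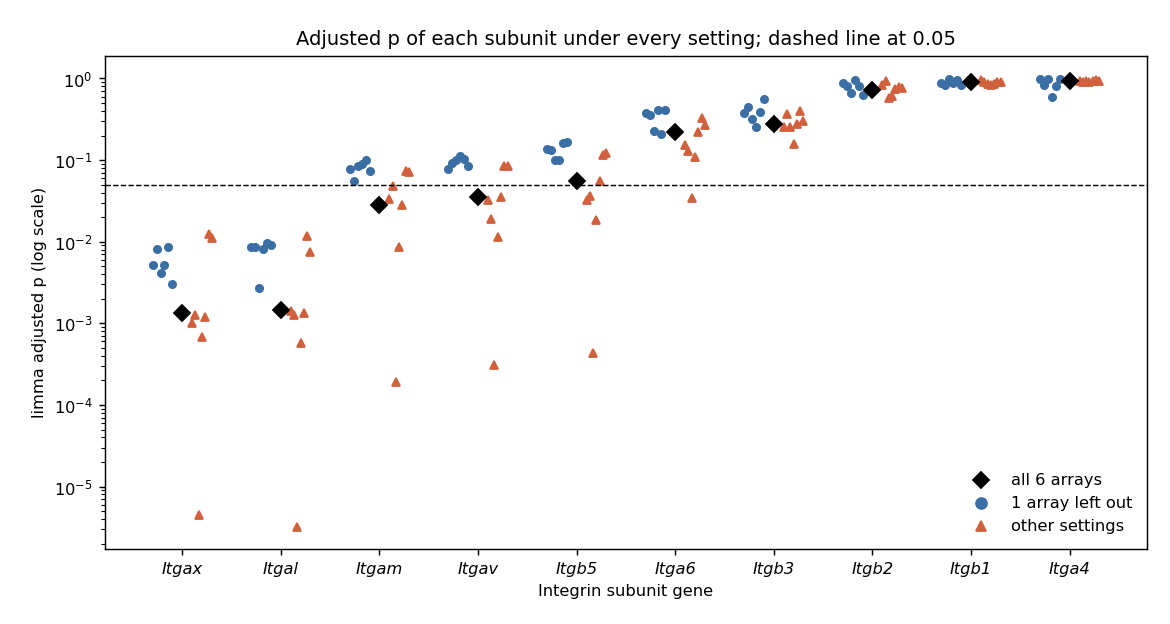
Limma adjusted p of each subunit gene on a log axis: black diamonds for all 6 arrays, blue circles for the 6 fits without 1 array, orange triangles for the 7 other settings, and a dashed line at 0.05. All points of Itgax and Itgal lie under the line, whereas those of Itgam, Itgav and Itgb5 fall on both sides. For Itga6 only the variance trend lies under it.

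The remaining integrin subunits were all measured too. Of these 17 genes, 3 fell, 0 rose and 14 did not pass limma. Over all tested genes 6.72% were called, and of those without a dim mean 10.6%. Of all 17, the called genes included, 7 had an unadjusted p under 0.05, and 15 of 17 changes were negative. Over all 18820 tested genes 3906 had an unadjusted p under 0.05, and 10082 changes were negative. Among the 11292 without a dim mean these counts were 3240 and 6195. The median change of the 17 subunits was -0.11, against -0.0077 for all tested genes. Itgb7, a partner of alpha4 in homing to the gut, fell from 6.41 ± 0.08 to 5.99 ± 0.16 (SD, n = 3 each; change -0.41, SE 0.0845, adjusted p = 0.0286). Itgb8, a partner of alphav that activates TGF-beta, fell by 0.44 (SE 0.102, adjusted p = 0.0461) to a GPS2KO mean of 5.45, which is dim, so the size of its fall is not firm. Itga1, a collagen receptor chain, fell by 0.20 (SE 0.0474, adjusted p = 0.0465). These 3 calls were fragile: Itga1 lost its call without any 1 array (adjusted p up to 0.143), after quantile normalization (0.0570) and with a variance trend (0.0562). Among the fits without 1 array, Itgb7 kept it only without GPS2KO replicate 2, and Itgb8 only without WT replicate 2 or 3 (adjusted p elsewhere up to 0.0936 and 0.126). Itga8 differed by -0.40, nearly as much as Itgb7, but did not pass (adjusted p = 0.0585).

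**Figure D4:**
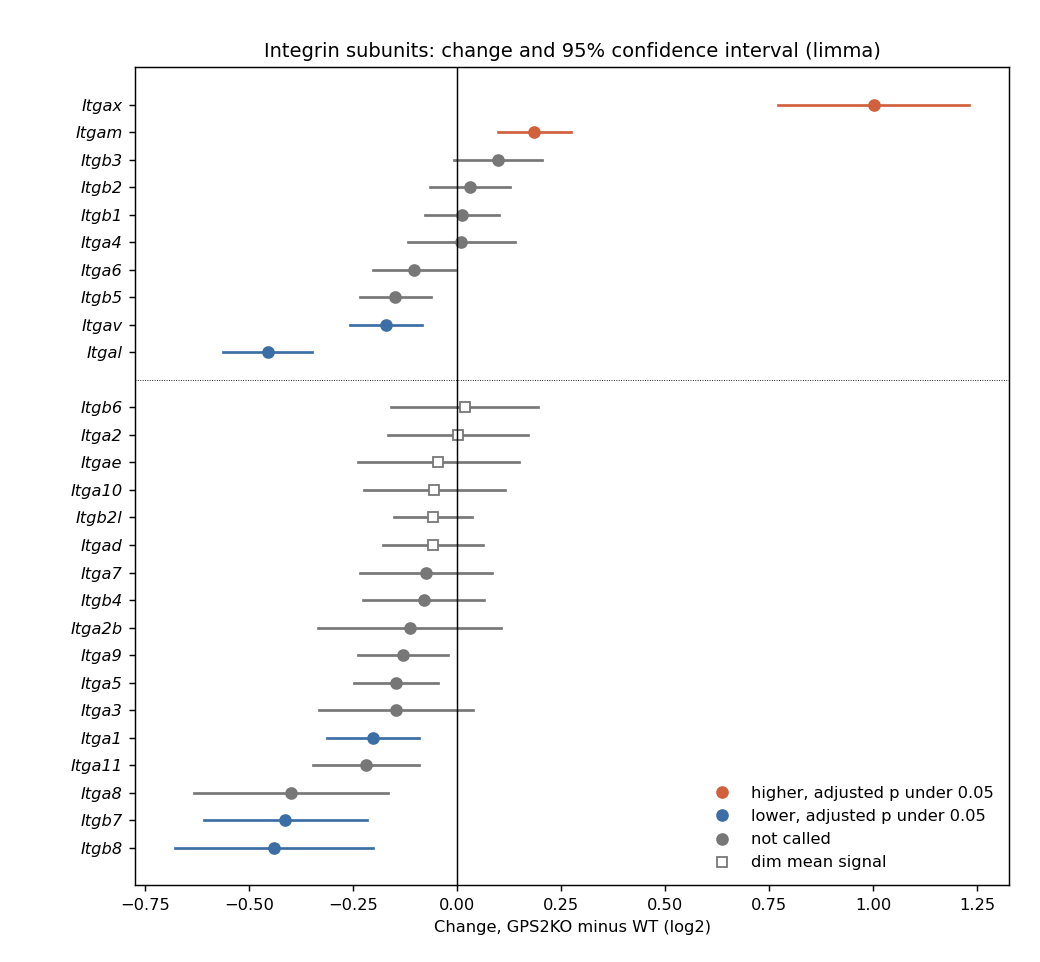
Change of all 27 integrin subunit genes, as the log2 difference GPS2KO minus WT, with 95% confidence intervals; the members are above the dotted line, colour gives the call and open squares mark a dim mean. Itgax stands alone at the right at 1.00, and of the 17 other subunits 15 lie left of 0.

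The genes of integrin activators and tail-binding proteins showed little difference in RNA signal. Of these 13 genes, 0 passed limma (1 at an unadjusted p under 0.05), and the changes ran from -0.083 to 0.10 with a median of 0.017. Tln1, which encodes talin, differed by 0.019 (adjusted p = 0.879), and Fermt3, which encodes the kindlin of blood cells, by 0.050 (adjusted p = 0.513). The smallest p belonged to Cyth1, an exchange factor that binds the beta2 tail (0.10, adjusted p = 0.230), and to Rassf5, an adaptor of the small GTPase Rap1 (-0.077, adjusted p = 0.381).

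Downstream of the receptors, 3 of 19 measured signalling and adhesion-site genes fell, 1 rose and 15 did not pass, with a median of -0.090. Of all 19, the called genes included, 12 had an unadjusted p under 0.05 and 16 changes were negative. Among the 11292 tested genes without a dim mean these counts were 3240 and 6195, and 10.6% were called. Fyb and Src came near the threshold, with changes of -0.18 and -0.19 (limma adjusted p = 0.0541 and 0.0582). Fgr, a Src-family kinase of myeloid cells that acts in beta2 integrin signalling, was at 8.66, 8.85 and 8.87 in WT and 7.92, 7.90 and 7.96 in GPS2KO. It fell by 0.87 (SE 0.0609, limma adjusted p = 0.000336), to 54.9% of the WT signal, with the groups far apart. Parvg encodes gamma-parvin, the parvin of blood cells, which joins integrin-linked kinase at adhesion sites. It was at 10.05, 10.08 and 10.08 in WT and 9.41, 9.29 and 9.33 in GPS2KO, a fall by 0.73 (SE 0.0434, limma adjusted p = 0.000194). The other parvins, Parva and Parvb, differed by -0.15 (adjusted p = 0.126) and -0.036 (adjusted p = 0.647), and Ilk itself by -0.090 (adjusted p = 0.199). Tns3, a tensin that links beta tails to actin, fell by 0.23 (adjusted p = 0.0286), a call lost without any 1 array (adjusted p up to 0.0880). Vav3, a guanine nucleotide exchange factor, rose by 0.37 (SE 0.0467, adjusted p = 0.00368), whereas its relative Vav1 differed by -0.045 (adjusted p = 0.532).

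Of 20 measured integrin ligands, 3 fell, 1 rose and 16 did not pass, with a median of -0.065. Of all 20, the called genes included, 8 had an unadjusted p under 0.05, beside 3906 of all 18820 tested genes. Of those 18820, 6.72% were called. Icam1, the main ligand of LFA-1 and also one of complement receptor 3, was at 10.59, 10.68 and 10.75 in WT and 10.12, 10.08 and 10.10 in GPS2KO. It fell by 0.57 (SE 0.0488, limma adjusted p = 0.000685), so both the LFA-1 alpha gene and this ligand were lower. F11r, which encodes the junction protein JAM-A, another ligand of LFA-1, fell by 0.82 (SE 0.0627, adjusted p = 0.000458). Icam2 differed by -0.40 but did not pass (adjusted p = 0.0566). Edil3, just as near the threshold, differed by 0.30 (adjusted p = 0.0564). Among matrix-type ligands Mfge8, the bridge between dying cells and alphav integrins, was at 11.58, 11.65 and 11.65 in WT and 12.14, 12.07 and 12.03 in GPS2KO. It rose by 0.45 (SE 0.0456, adjusted p = 0.0014). Nid1, a basement membrane protein, fell by 0.28 (adjusted p = 0.0117). Fn1, which encodes fibronectin, differed by -0.075 (adjusted p = 0.397) and Thbs1, thrombospondin, by -0.032 (adjusted p = 0.705).

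Of 10 genes of membrane proteins that associate with integrins, 2 fell, 0 rose and 8 did not pass, with a median of -0.047. Of all 10, the called genes included, 5 had an unadjusted p under 0.05, beside 3240 of the 11292 tested genes without a dim mean. Of those 11292, 10.6% were called. Cd82, a tetraspanin, was at 11.65, 11.62 and 11.56 in WT and 11.13, 11.13 and 11.11 in GPS2KO. It fell by 0.49 (SE 0.0396, limma adjusted p = 0.000563). Cd47, an integrin-associated protein and the signal that restrains phagocytosis, fell by 0.30 (SE 0.0414, adjusted p = 0.00589). The tetraspanins Cd9, Cd81 and Cd63 had changes between -0.043 and 0.066 and did not pass. Cd37, Cd151 and Cd53, also tetraspanins, differed more, by -0.15, -0.14 and 0.12. They did not pass either (limma adjusted p = 0.0764, 0.0696 and 0.101).

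**Figure D5:**
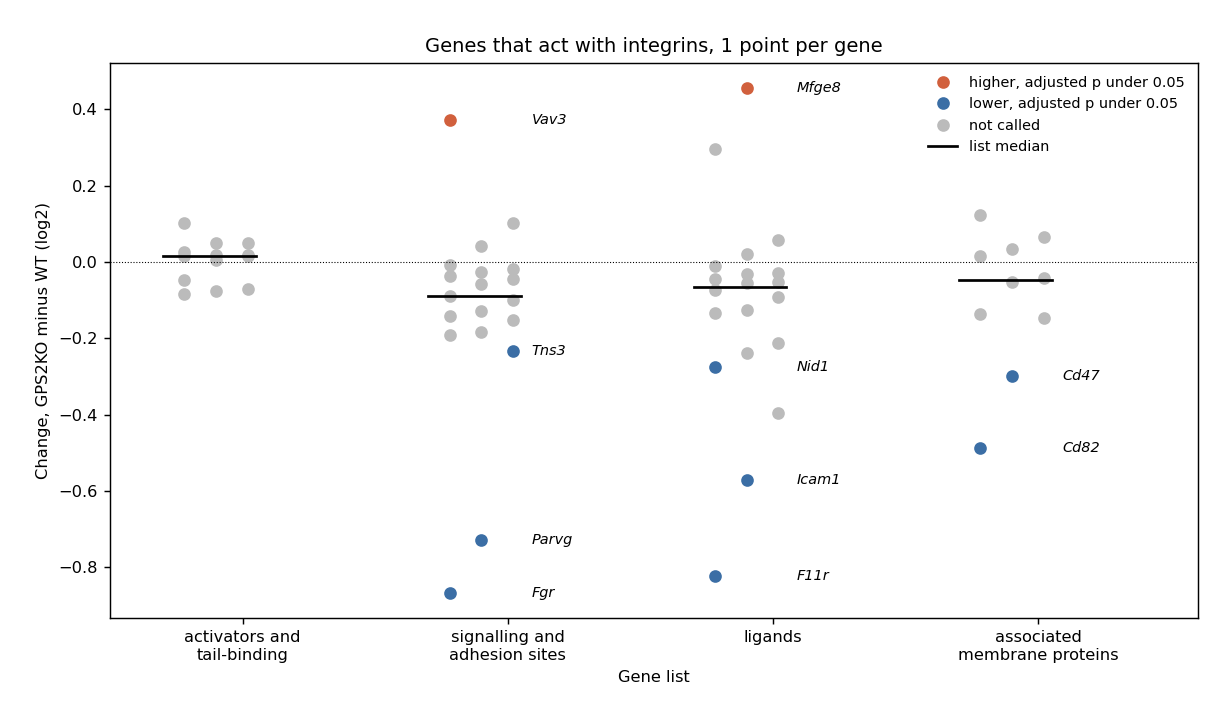
Change of each gene that acts with integrins, as the log2 difference GPS2KO minus WT, in 4 lists, with called genes coloured and named and a black line at each list median. The points of the activators and tail-binding proteins stay between -0.083 and 0.10, while Fgr, Parvg, F11r, Icam1 and Cd82 lie farthest below 0.

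For each called member the most similar profiles over the 6 arrays were found by the root mean square distance between log2 values centred on each gene's own mean. Predicted or unnamed gene models were passed over. Such likeness rests mainly on the difference between the groups and says nothing of shared control. Nearest to Itgax were Mmp12, the macrophage elastase (distance 0.0873, change 1.11), Atp6v0d2, a subunit of the proton pump (0.0984, change 1.01), and Clec7a, the beta-glucan receptor Dectin-1 (0.0988, change 0.87). The centred profile of Itgax itself had a root mean square of 0.517. Nearest to Itgal were Cd82 (distance 0.0250, change -0.49), Cap2, an actin regulator (0.0338, change -0.49), and Gpr84, a receptor of medium-chain fatty acids (0.0355, change -0.44). Cd82 is thus both an integrin-associated protein and, among the genes compared, the closest to Itgal. Itgam was nearest to Mroh1, Lhfpl2 and the cathepsin gene Ctsc, with changes from 0.16 to 0.18. Itgav was nearest to Spred1, an inhibitor of Ras signalling, Plppr2 and Lrrc8c, with changes from -0.18 to -0.15.

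Several members are known from cell types besides macrophages that can be present in marrow cultures. Itgax is a defining gene of dendritic cells, and of 9 other dendritic cell markers 0 passed limma (0 at an unadjusted p under 0.05) and 7 were dim. The other 2, Zbtb46 and Ccr7, had WT means of 5.81 and 6.29 and changes of -0.092 and -0.049. The summed linear intensity of the list was 270.4 to 271.5 in WT and 261.1 to 270.6 in GPS2KO, so the groups overlapped. The part of dendritic cells in the Itgax result was not tested. For Itgal, which lymphocytes express strongly, 4 of 5 T cell markers were dim and 1, Cd5, fell by 0.44 (adjusted p = 0.0240). Of 4 B cell markers 3 were dim and Cd79b fell by 0.46 (adjusted p = 0.00373). All 4 NK cell markers were dim and 0 passed limma (0 at an unadjusted p under 0.05). Summed intensities were 150.2 to 159.5 in WT and 129.6 to 145.9 in GPS2KO for T cells, 199.7 to 213.1 and 163.9 to 175.2 for B cells, and 87.7 to 89.0 and 85.7 to 87.4 for NK cells. The part of these cells in the Itgal result was not tested.

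Fibroblast markers were bright in both groups, with 7 of 8 not dim. Col1a1 and Pdgfrb had WT means of 11.97 and 11.07, and Itga11, a collagen receptor chain of fibroblasts, had 10.80. Of the 8 markers, Pdgfrb, Thy1 and Col1a1 fell by 0.28, 0.30 and 0.20 (adjusted p = 0.00675, 0.0165 and 0.0225) and Dcn rose by 0.30 (adjusted p = 0.0334). The summed intensity was 10000.0 to 10585 in WT and 9045 to 9171 in GPS2KO, and did not overlap. Itga11 differed by -0.22 (adjusted p = 0.0584). Fibroblasts also express Itgav, Itgb5 and Itga1, whose values were lower alongside, and the part of these cells in those results was not tested.

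Osteoclasts use alphav beta3, and of their 8 markers 2 rose (Atp6v0d2 by 1.01 and Ctsk by 0.47), 1 fell (Ocstamp by 0.68) and 5 did not pass. Their summed intensity was 3220.1 to 3392 in WT and 4845 to 5149 in GPS2KO, with 1 marker dim. Atp6v0d2 was the brightest of the 8, at 10.70 in WT and 11.71 in GPS2KO, and weighed most in this sum. Endothelial markers Emcn and Cdh5 rose by 0.56 and 0.35 (summed intensity of 5 markers 493.8 to 516.9 in WT and 612.4 to 674.1 in GPS2KO, 1 dim). Among 5 megakaryocyte and platelet markers Pf4 rose by 0.22 and Ppbp fell by 0.64, 2 were dim, and the platelet alpha chain gene Itga2b differed by -0.11 (adjusted p = 0.556). For those 5 the summed intensity was 5130.4 to 5677 in WT and 5837 to 5972 in GPS2KO. Most of it came from Pf4, with means of 12.17 in WT and 12.38 in GPS2KO. Monocyte markers went both ways, with Ccr2 falling by 0.97 and F13a1 rising by 0.73 (3 tested, 0 dim). The monocyte sum, in which F13a1 weighed most, was 1198.9 to 1247.3 in WT and 1537.0 to 1709.2 in GPS2KO. Ngp was the 1 of 9 neutrophil markers that passed (0.46 higher, 7 dim). The neutrophil sum was 300.3 to 319.5 in WT and 321.2 to 354.5 in GPS2KO. Of the mast cell and basophil markers (4 tested, 2 dim) and the erythroid markers (3 tested, 3 dim), 0 passed limma (0 at an unadjusted p under 0.05). How far these cells contributed to the integrin values was not tested.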

How the data were processed

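RNA from 6 bone marrow-derived macrophage samples was measured on Affymetrix arrays, 1 array per sample, with groups and replicate numbers from the sample titles. The deposited values are log2 intensities, which the authors made with RMA in the R package oligo, per the submitters' processing notes, with no versions named. RMA corrects background, quantile-normalizes across arrays and summarises each probe set by median polish, so a change common to most genes would be hidden, and background left in dim signals compresses their changes. The scale was taken as log2 from the range of values, which ran from 2.42 to 14.0.

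The platform annotation held by GEO can be out of date. It gave 1 symbol for 21218 of 35556 probe sets, several for 1881, and did not list 12457. Symbols were updated by gene number through RefSeq (GRCm38.p6), where 21185 matched. The probe set with the highest mean over the 6 arrays stood for each of 18820 tested genes. No genome build of the array is named in the labels, so the RefSeq annotation served only for names, gene order and promoter sequences.

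Each gene was fitted with limma 3.58.1 in R 4.3.3 (lmFit and eBayes, group as the only term, 2-sided, Benjamini-Hochberg over all tested genes, threshold 0.05). Changes are GPS2KO minus WT. Dim stands for a mean under 5.49, the 40th percentile over tested genes, and no gene was left out for it. The number of arrays limits the precision. Nothing in the labels says that the arrays of a group came from separate animals, so the p-values cover only the spread among these arrays, and part of it may be technical. With 3 arrays a group an exact permutation test of 1 gene cannot go below p = 0.1, so none is given. The scripts were tested on simulated data.

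The members, the lists of other integrin genes and cell type markers, and the rule for named genes were chosen with earlier results of these data known. The rule took each member. From every other integrin list it took up to 6 genes past the threshold by smallest p, or the 2 with the smallest p where none passed. From each marker list it took up to 4 past the threshold. It added Gps2 and, for each called member, 3 genes with the most similar profile, with predicted or unnamed gene models passed over. Other genes named in the text were chosen after their values were seen. The symbol Cyr61 was read as Ccn1. Some listed integrin genes, among them Ptk2, Lyn, Actn4, Spp1 and C3, and 9 of the listed markers were not analysed here. The alternatives tried were a further quantile normalization, median centring of arrays, a variance trend, leaving out dim genes, averaging probe sets, testing all probe sets, leaving out each array, and a replicate block.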

Additional observations from a re-analysis of the deposited data

How the results depend on the processing

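Itgax, Itgal, Fgr, Parvg, Vav3, Icam1, F11r, Mfge8, Nid1, Cd47 and Cd82 kept their direction and their call under all 13 alternatives. The call of Itgam ended when all probe sets were tested (adjusted p = 0.0731) and with a replicate block (0.0722), and that of Itgav likewise (0.0849 and 0.0852). With all probe sets tested 2 members were called (1 higher, 1 lower), and with the replicate block also 2 (1 higher, 1 lower), in each case Itgax and Itgal. The replicate numbers showed no pairing, since deviations of same-numbered WT and GPS2KO arrays from their group means had correlations across genes of 0.0035, 0.026 and -0.0060. With the block 862 genes were called and 1 of the other integrin subunits, Itga1 (adjusted p = 0.0612) and Itgb8 (0.0531) losing their calls. Without 1 array 2 members (1 higher, 1 lower) were called in each fit, 749 to 842 genes in all (322 to 376 higher, 419 to 503 lower) and 0 to 2 other integrin subunits.

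With a variance trend 4 members were lower, and 2174 genes were called (926 higher, 1248 lower). Of the lists, 5 other subunits, 10 signalling genes, 7 ligands and 5 associated proteins were called, 27 in all against 13. Without dim genes 1962 genes were called (1154 lower), with 6 other subunits, 7 signalling genes and 5 associated proteins, 24 in all. Fewer genes are tested there, and limma also pools its variances over a different set of genes. After median centring 5 other subunits, 7 signalling genes and 4 associated proteins were called, 21 in all. With all probe sets tested 618 genes were called (275 higher, 343 lower), with 0 other subunits. There the adjustment runs over more tests, and the variances are again pooled over a different set.

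Among the members and the other integrin genes taken by the naming rule, signs turned only for Itgb1 and Itga4. Itgb1 was at -0.0046 after quantile normalization, -0.012 after median centring, -0.023 with averaged probe sets and -0.0066 without GPS2KO replicate 2, with a range up to 0.025 over the fits without 1 array. Itga4 was at -0.014 after median centring, -0.0016 without WT replicate 3 and -0.035 without GPS2KO replicate 2, with a range up to 0.059. The cause of the shifts between settings was not tested. The small number of arrays limits what can be detected.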
